A study of Mus musculus with 8 samples.

Results

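The 10 genes described here are known for their expression in macrophages and were followed on 8 arrays of cultured lymph node stromal cells: Spp1, Trem2, Csf1r, Cd68, Lyz2, Tyrobp, Fcer1g, C1qa, C1qb and Cd14. Every non-control probe that the arrays name for 1 of these 10 genes was taken, older names included, which gave 15 of 41174 probes and 10 of 27573 genes. The members were chosen by 2 of them: Spp1 and Trem2 were selected on their low ratios in heavy polysome RNA, and the other 8 are macrophage genes added beside them. Spp1 was also known to have a low ratio in total RNA. These ratios are therefore described below without a p-value. Counts of genes past the threshold that include them are not a test of the set. There was no numerical threshold for membership.

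The cells came from BALB/c mice and were transfected in dishes with 400 pmol of control siRNA or of siRNA against Eif4g3, which encodes a scaffold of the translation initiation complex eIF4F, using the lipid reagent Lipofectamine. They were harvested after 48 h, 7 plates were transfected per siRNA, and cells were pooled ahead of lysis and the sucrose gradient that gave the polysome fractions. Total RNA, 4 arrays, came from the whole lysate, and heavy polysome RNA, 4 arrays, came from the gradient fractions with mRNAs that carry many ribosomes. From each sample 200 ng of RNA was labelled, Eif4g3 siRNA always with Cy5 and control siRNA always with Cy3, so a dye bias of a probe and an effect of the siRNA cannot be told apart within a fraction. No untransfected cells were included among these arrays, all cells were cultured, and the labels do not say whether the 4 replicates of a fraction were separate cultures, so p-values measure the spread between these arrays, which may be technical.

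Macrophages are phagocytes that settle in nearly all tissues, and in the lymph node they line the sinuses and follicles beside the fibroblast-like and vascular stromal cells. Their survival depends on the growth factor receptor Csf1r. Trem2, a lipid-sensing surface receptor, has no signalling tail of its own and signals through the adaptor Tyrobp, whose ITAM motif recruits the kinase Syk. Spp1 encodes osteopontin, a secreted phosphoprotein that binds integrins and CD44. It is abundant in some macrophages, but fibroblasts, osteoblasts and many cultured cells also make it.

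Unless a level is named, a value is the log2 ratio of the Eif4g3 siRNA signal to the control siRNA signal on an array. Means are given ± SD (n = 4 arrays per fraction), and adjusted p comes from limma with Benjamini-Hochberg adjustment over 14482 tested genes. Between 38.4% and 58.0% of spots were well above background, as the scanner software marks it, in Cy3 and between 43.8% and 54.0% in Cy5. The target transcript Eif4g3 ranged from -2.49 to -1.81 in total RNA, with -3.16 to -2.0 in heavy polysome RNA, below 0 on all 8 arrays. Arrays of a fraction correlated unevenly across genes, from r = 0.15 (total RNA arrays 1 and 4) to r = 0.61 in total RNA, and from r = 0.16 (heavy polysome arrays 1 and 3) to r = 0.88 (arrays 2 and 4) in heavy polysome RNA.

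Of the 10 genes, 6 had a probe well above background in both channels on all 8 arrays: Spp1, Trem2, Csf1r, Cd68, Lyz2 and Cd14. Fcer1g and C1qb were dim: Fcer1g was well above background on 7 arrays in either channel, and C1qb on 6 arrays in Cy3 and 7 in Cy5. Tyrobp and C1qa were not well above background in either channel on any of the 8 arrays, so 8 of 10 genes entered the test. Trem2 transcript was thus measured in RNA samples in which its signalling partner Tyrobp was not detectable by its single probe.

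The name macrophage genes was held against 40 further genes of macrophages and other myeloid cells, 39 of them on the array. Only 11 of the 39 (28.2%) could be tested, against 52.5% of all genes on the array, and 19 were not well above background in either channel on any array. Those 19 include Ptprc, the pan-leukocyte phosphatase CD45, the integrin gene Itgam (CD11b), Adgre1, which encodes the macrophage antigen F4/80, the mannose receptor gene Mrc1, Laptm5, Ctss, Cx3cr1, Cybb, Cd52, Cd163 and C1qc. Spi1, the gene of the macrophage transcription factor PU.1, passed on 1 array in either channel. The 6 that were well above background everywhere include Cd53, Coro1a and Slc11a1, and also Cyba and Lyn, which other cell types use as well.

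The labelled stromal identity fared otherwise. Of 21 genes of stromal cells, 17 were tested and 15 were well above background in both channels on all 8 arrays, among them Pdgfrb, Pdgfra, Thy1, Pdpn, Col1a1 and Vim, while Ccl21a and Cxcl13, chemokines of lymph node stroma, were not well above background on any array. Of genes of other cell types, 6 of 15 endothelial, 3 of 15 lymphocyte and 7 of 20 dendritic cell, neutrophil and mast cell genes were tested. The endothelial Pecam1, Lyve1 and Tie1 and the lymphocyte Cd3d and Cd79a were well above background nowhere. The endothelial Vwf, Flt1 and Egfl7 and the dendritic cell gene H2-Ab1 were so in both channels on all 8 arrays. The lymphocyte Lck was so on 7 arrays in Cy3 and 8 in Cy5, and Cd3e on 6 and 3. The defining myeloid transcripts were therefore at or near background, and the 10 genes are called by their names below and not by a cell type. In bulk RNA, fewer cells of a type and less RNA per cell cannot be told apart.

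**Figure D1:**
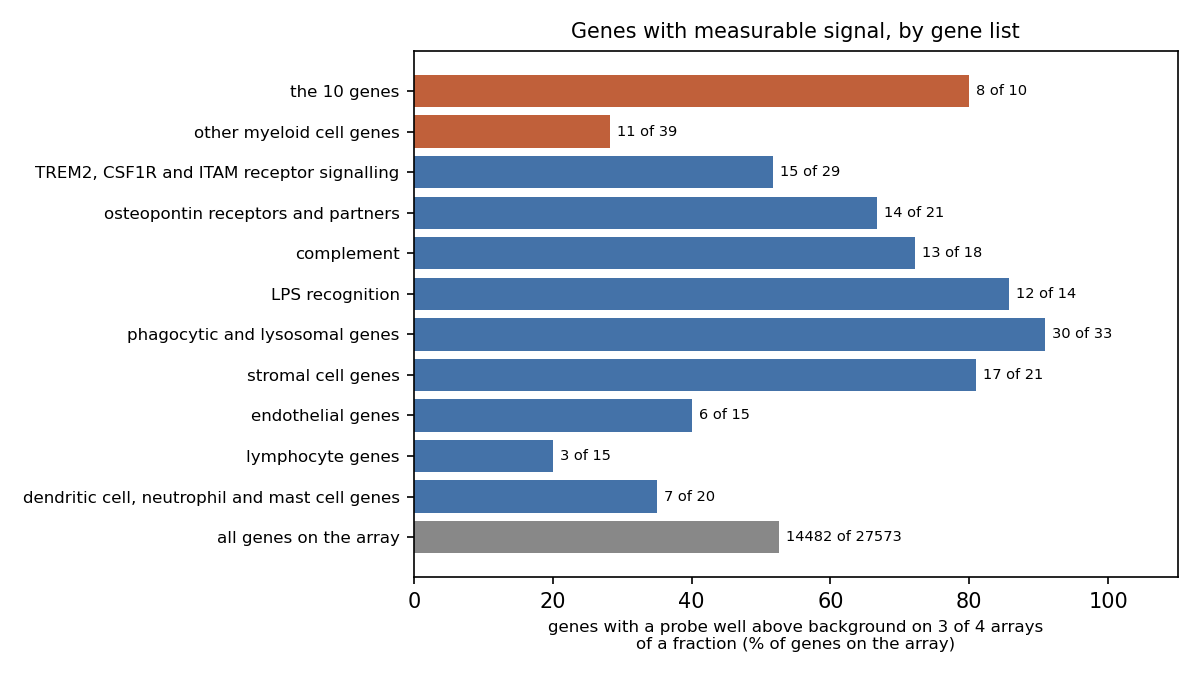
Share of the genes on the array, in percent, that passed the background filter and were tested, for the 10 genes, for each list of related or cell type genes and for all genes; the count stands at each bar. The 10 genes reach 8 of 10 and the stromal list 17 of 21, while the other myeloid list reaches 11 of 39 and the lymphocyte list 3 of 15, both under the 52.5% of all genes.

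The promoter sequences of Spp1, Trem2, Cd68 and Lyz2, 4 measurable genes with contrasting values, are shown so that the motifs known from macrophage and osteoblast gene control can be seen beside the values. They are the 250 bases before the annotated start in RefSeq on GRCm38.p6, printed in the direction of transcription. Capitals mark matches, on either strand, to GAGGAA (the core bound by PU.1), TGANTCA (AP-1) and AACCACA (RUNX factors), and CACGTG was searched as well and matched none of them.
Spp1, chr5:104434861-104435110, plus strand: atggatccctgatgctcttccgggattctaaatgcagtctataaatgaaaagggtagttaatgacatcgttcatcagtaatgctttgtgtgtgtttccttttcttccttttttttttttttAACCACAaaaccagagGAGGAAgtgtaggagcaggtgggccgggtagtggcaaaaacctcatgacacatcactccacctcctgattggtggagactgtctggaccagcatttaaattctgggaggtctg
Trem2, chr17:48346151-48346400, plus strand: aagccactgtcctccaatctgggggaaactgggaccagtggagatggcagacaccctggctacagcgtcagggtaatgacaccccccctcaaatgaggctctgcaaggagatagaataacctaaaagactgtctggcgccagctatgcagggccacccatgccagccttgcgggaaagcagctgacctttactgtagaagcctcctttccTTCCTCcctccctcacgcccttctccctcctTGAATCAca
Cd68, chr11:69666171-69666420, minus strand: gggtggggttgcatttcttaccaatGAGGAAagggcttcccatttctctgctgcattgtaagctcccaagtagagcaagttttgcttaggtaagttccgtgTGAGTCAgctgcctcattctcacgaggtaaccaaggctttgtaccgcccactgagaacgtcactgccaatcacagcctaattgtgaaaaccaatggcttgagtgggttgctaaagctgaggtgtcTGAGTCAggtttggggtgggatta
Lyz2, chr10:117282273-117282522, minus strand: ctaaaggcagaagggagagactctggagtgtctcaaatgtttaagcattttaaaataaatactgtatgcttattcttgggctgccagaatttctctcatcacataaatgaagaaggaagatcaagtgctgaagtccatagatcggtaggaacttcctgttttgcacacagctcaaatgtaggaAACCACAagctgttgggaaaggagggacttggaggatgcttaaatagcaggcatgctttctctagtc

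Spp1 held AACCACA from 129 to 123 and GAGGAA from 113 to 108 bases before the start. Trem2 held GAGGAA on the other strand from 40 to 35 and TGANTCA from 9 to 3 bases before it. Cd68 held GAGGAA from 225 to 220 and TGANTCA at 2 places, 149 to 143 and 24 to 18 bases before the start, and Lyz2 held AACCACA from 67 to 61 bases before it. Among 32851 promoters of the same length, 23.3% held GAGGAA, 6.75% TGANTCA, 4.40% AACCACA and 6.02% CACGTG. A match describes the letters and shows neither a bound site nor a cause of any value below, and a missing match says only that the letters are not in these 250 bases. Promoter sequences of 6 of the 10 genes were available for use. Those of C1qb and Fcer1g, measurable genes that differed little between the siRNAs, are not printed. C1qb held GAGGAA from 30 to 25 bases before the start, and Fcer1g held none of the motifs searched.

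Spp1, the secreted ligand of the set, was lower in Eif4g3 siRNA cells on every array after loess and in the deposited values, but above 0 on heavy polysome array 1 (0.78) when arrays were only centred on their median, where the median of all genes tested was 1.18. Its probe A_51_P358765 (mm8 chromosome 5, 104681071 to 104681130) gave -0.78, -1.19, -2.10 and -1.32 on arrays 1 to 4 of total RNA. Arrays 1 to 4 of heavy polysome RNA gave -0.78, -1.10, -2.66 and -1.37. Array 3 was lowest and array 1 highest in each fraction, and the fractions overlapped throughout. The means were -1.35 ± 0.55 in total RNA (2.55-fold lower, n = 4), compared with -1.48 ± 0.83 in heavy polysome RNA (2.79-fold lower, n = 4).

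The 10 replicate spots that the array carries for Spp1 allow its measurement error to be read within an array. After removal of marked spots 7 to 10 remained per array, and the SD of their ratios was 0.03 to 0.15 on 7 arrays. Total RNA array 4 was the exception, with an SD of 0.35 and spots from -1.80 to -0.82. The spots of that array covered the mean of total RNA array 2 (-1.19), so these arrays cannot be put in order.

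Spp1 was also among the brightest transcripts: between 0.07% and 2.20% of spots on an array were brighter than its mean. The Cy3 level, which is the control siRNA sample, was 15.67, 16.52, 14.62 and 16.10 in total RNA, beside 16.19, 16.15, 15.69 and 15.95 in heavy polysome RNA. In Cy5, the Eif4g3 siRNA sample, the level was 14.89, 15.33, 12.52 and 14.78 in total RNA, compared with 15.41, 15.05, 13.03 and 14.58 in heavy polysome RNA. Array 3 was lowest in both channels in each fraction, by more in Cy5 than in Cy3. Control siRNA levels alone spanned 1.90 (3.72-fold) over the 8 arrays, more than for 90.6% of the tested genes, whose median span was 1.00. In Cy5 the span was 2.90 (7.44-fold), more than for 97.5% of genes, against a median of 1.21.

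The ratio of so bright a gene depends on the correction for spot brightness, and the uncorrected values are given for that reason. Before normalisation Spp1 stood at -2.63, -1.45, -3.73 and -2.25 in total RNA, with 1.07, -1.18, -3.79 and -2.24 in heavy polysome RNA. Other spots within 0.5 of its brightness, 79 to 713 per array, had median uncorrected ratios of -1.77, 0.00, -1.63 and -0.84 in total RNA, beside 1.36, -0.01, -1.16 and -0.83 in heavy polysome RNA. Spp1 lay below the median of these spots on all 8 arrays, and none of them was lower on arrays 2 to 4 of either fraction. On total RNA array 1, 3.35% of them were lower, and on heavy polysome array 1 it was 24.1%. On that array Cy5 outshone Cy3 over bright spots in general, and Spp1 stood at 1.07 before the correction, at -0.78 after it and at -0.34 in the authors' deposited values. The equally bright spots of that array had a median of -0.50 after the correction, compared with -0.04 to 0.27 on the other 7 arrays. With the Spp1 spots kept out of the correction curve the means were -1.35 and -1.48, as before.

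**Figure D2:**
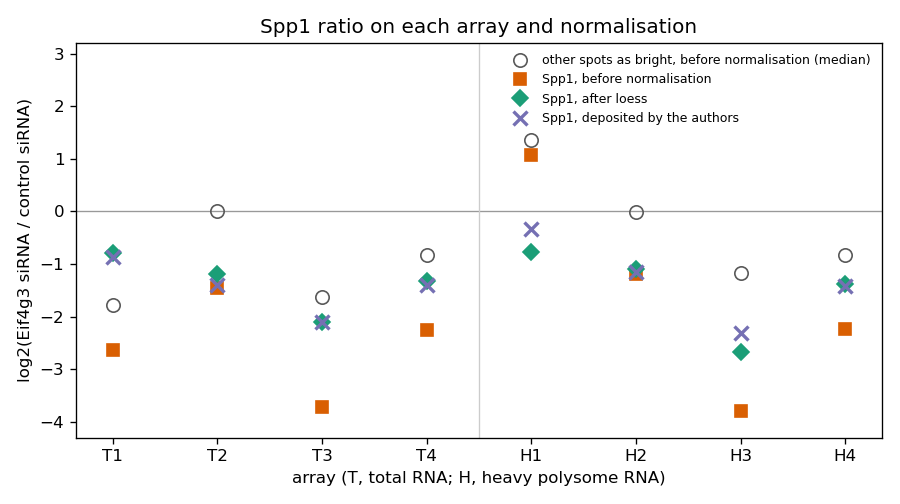
Log2 ratio of Eif4g3 siRNA over control siRNA for Spp1 on each array (T1 to T4, total RNA; H1 to H4, heavy polysome RNA) before normalisation, after loess and as deposited by the authors, with the median uncorrected ratio of spots of like brightness. Spp1 lies below its equally bright neighbours on all 8 arrays, by least on heavy polysome array 1, where both are above 0 (1.07 and 1.36).

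Receptors came next, and Trem2 followed the same order of arrays only in part. The main probe A_51_P269546 (mm8 chromosome 17, 47817764 to 47817823) gave -0.33, -0.38, -1.71 and -0.77 in total RNA, with -1.48, -0.69, -2.34 and -1.06 in heavy polysome RNA. Every ratio was below 0 after loess, array 3 was lowest in both fractions, and the fractions overlapped. In heavy polysome RNA the mean was -1.39 ± 0.71 (2.62-fold lower, n = 4). In total RNA, which had no part in the choice of Trem2, it was -0.80 ± 0.64 (1.74-fold lower, n = 4, limma adjusted p = 0.131) and did not pass the threshold of 0.05. A second probe nearby, A_51_P269549 (47817462 to 47817598), was also below 0 on all 8 arrays, with -0.48, -0.25, -0.80 and -0.63 in total RNA, compared with -0.77, -0.52, -1.45 and -0.59 in heavy polysome RNA. Both probes put array 3 lowest, and the second gave smaller means (-0.54 ± 0.23 and -0.83 ± 0.43).

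The levels of Trem2 moved apart from those of Spp1 on array 3. In control siRNA cells (Cy3) Trem2 was at 8.97, 10.00, 9.67 and 8.67 in total RNA, beside 10.76, 9.36, 9.99 and 8.68 in heavy polysome RNA. In Eif4g3 siRNA cells (Cy5) it was at 8.64, 9.63, 7.96 and 7.91 and at 9.28, 8.68, 7.65 and 7.62. Array 3 was second highest of its fraction in Cy3 but second lowest in Cy5, while array 4 was lowest in both channels of both fractions. Control siRNA levels spanned 2.09 (4.25-fold) over the 8 arrays, more than for 93.4% of genes.

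Csf1r, the receptor for the growth factors Csf1 and Il34, was lower in total RNA and was the only gene besides Spp1 and Trem2 to pass in any comparison. Probe A_51_P365885 gave -0.48, -0.22, -0.65 and -0.94 in total RNA, with -0.04, -0.30, -0.64 and -0.45 in heavy polysome RNA. All 8 values were below 0, and the fractions overlapped. In total RNA Csf1r fell (-0.57 ± 0.30, n = 4, 1.49-fold lower, limma adjusted p = 0.0447). In heavy polysome RNA the mean was -0.35 ± 0.25 (limma adjusted p = 0.129). This call did not survive leaving out any 1 array of total RNA, nor heavy polysome array 2 or 4 (limma adjusted p from 0.0721 to 0.157). With all probes of Csf1r averaged it was lost as well (0.0562); the second probe gave -0.23 ± 0.20 and the third was not well above background on any array.

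Cd14, the co-receptor that hands lipopolysaccharide to Tlr4, was below 0 on all 8 arrays without passing. It gave -0.06, -0.27, -0.07 and -1.14 in total RNA (-0.38 ± 0.51, limma adjusted p = 0.255) and -0.72, -0.09, -0.71 and -0.24 in heavy polysome RNA (-0.44 ± 0.32, limma adjusted p = 0.168). The lowest array was number 4 in total RNA but 1 and 3 in heavy polysome RNA, unlike Spp1 and Trem2. Fcer1g, the shared ITAM chain of Fc receptors, differed little between the siRNAs: 0.08, 0.14, 0.16 and -0.10 in total RNA, compared with 0.10, 0.16, 0.15 and 0.13 in heavy polysome RNA (0.07 ± 0.12 and 0.14 ± 0.03, limma adjusted p = 0.684 and 0.329). Its control siRNA levels were close to background and spanned only 0.27, less than for all but 1.04% of genes.

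Cd68, a glycoprotein of late endosomes and lysosomes, and Lyz2, the lysozyme that macrophages and neutrophils secrete, behaved differently. Cd68 (A_51_P120470, mm8 chromosome 11, 69481007 to 69481066) gave -0.29, -0.02, -0.29 and -0.33 in total RNA, beside -0.11, -0.09, -1.24 and -0.55 in heavy polysome RNA. All 8 values were below 0, heavy polysome array 3 stood lowest, and neither mean passed (-0.23 ± 0.14, limma adjusted p = 0.474, and -0.50 ± 0.54, limma adjusted p = 0.105). Lyz2 (A_52_P238027, mm8 chromosome 10, 116681504 to 116681563) gave 0.13, 0.18, -0.46 and 0.00 in total RNA, with 0.37, 0.13, -0.35 and 0.04 in heavy polysome RNA. Only array 3 of each fraction was below 0, so that the means were -0.04 ± 0.29 and 0.05 ± 0.30 (limma adjusted p = 0.909 and 0.866).

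Lyz2 varied widely between arrays in both siRNA samples at once. Its Cy3 level was 8.41, 9.45, 7.74 and 8.65 in total RNA, compared with 9.85, 8.81, 8.09 and 8.51 in heavy polysome RNA. Its Cy5 level was 8.54, 9.63, 7.28 and 8.65, and 10.22, 8.94, 7.74 and 8.54. Array 3 was lowest in both channels of both fractions, as it was for Spp1. The Cy3 span of 2.11 (4.31-fold) exceeded that of 93.6% of genes. A second Lyz2 probe was not well above background on any array.

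C1qb, a chain of the complement recognition molecule C1q, gave ratios from -0.01 to 0.10 in total RNA, beside -0.08 to 0.03 in heavy polysome RNA. Its means of 0.04 ± 0.05 and -0.02 ± 0.06 did not pass (limma adjusted p = 0.814 and 0.885). The signal was close to background, where ratios are drawn towards 0 by the offset of 50 added to both channels. C1qa and Tyrobp gave only bounds in both samples, and no fold is stated for them.

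**Figure D3:**
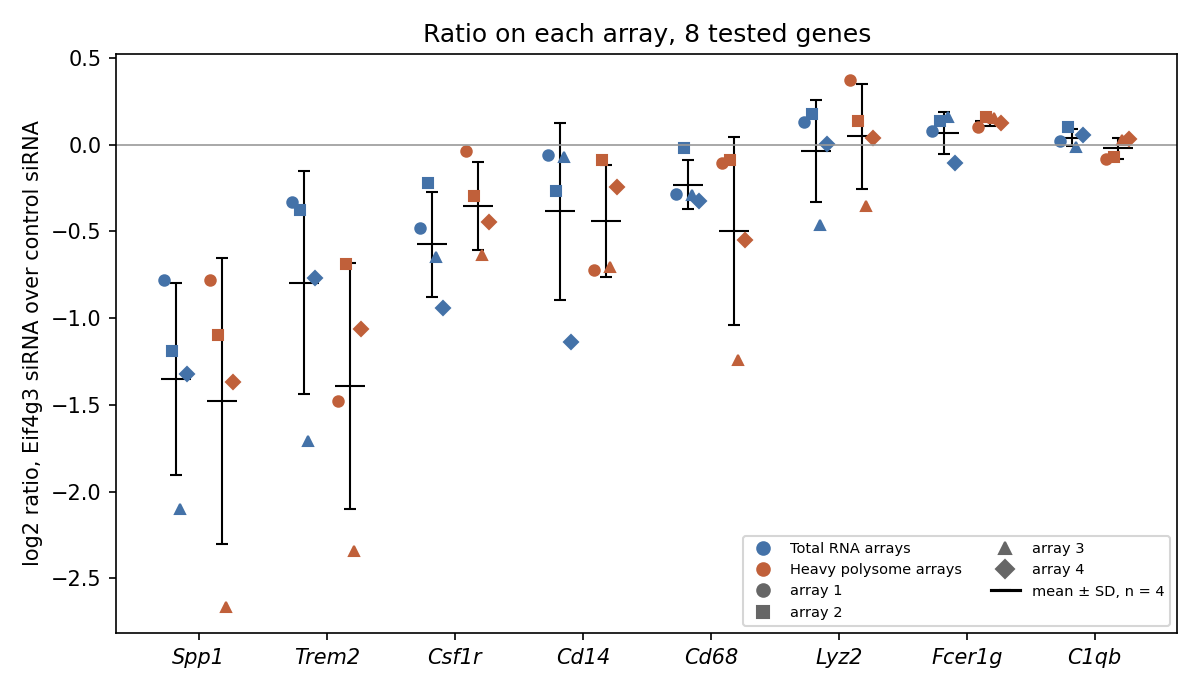
Log2 ratio after loess of Eif4g3 siRNA over control siRNA for the 8 measurable genes, 1 point per array (numbered) with the mean and SD of the 4 total RNA and the 4 heavy polysome arrays. Spp1, Trem2, Csf1r, Cd68 and Cd14 lie below 0 on all 8 arrays (with median centring alone, on all but heavy polysome array 1); Lyz2 is below 0 only on array 3 of each fraction.

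As a set, 2 of the 8 tested genes passed in total RNA (Spp1 and Csf1r, both lower), against 4.37% of all genes in either direction and 2.7% lower. In heavy polysome RNA it was also 2 of 8 (Spp1 and Trem2, both lower), the genes chosen on these very ratios. Of all genes 8.91% passed there, and 4.03% were lower. Since the set was drawn up around Spp1 and Trem2, and Spp1 was known to be low in total RNA, nothing is read from these counts. The median ratio of the 8 was -0.31 in total RNA, with -0.40 in heavy polysome RNA, beside -0.04 and 0.02 over all genes tested. Without Spp1 and Trem2 the median of the other 6 was -0.13 and -0.19. The 5 genes Spp1, Trem2, Csf1r, Cd68 and Cd14 were below 0 on all 8 arrays, as were 7.84% of all genes; on all 4 arrays of total RNA 21.5% of all genes were below 0 and on all 4 of heavy polysome RNA 14.7%. They were below 0 on all 8 arrays in the deposited values as well, whereas with median centring alone all 5 were above 0 on heavy polysome array 1, at 0.78 for Spp1, 0.13 for Trem2, 0.65 for Csf1r, 0.84 for Cd68 and 0.75 for Cd14, and below 0 on the other 7. All genes tested had a median of 1.18 on that array under that setting, above each of the 5.

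The 2 counts, which include the genes used for the choice, depended on single arrays. In total RNA the count fell to 0 when any 1 array of total RNA was left out, and without heavy polysome array 2 or 4, and in heavy polysome RNA it fell to 0 without heavy polysome array 4. Without array 3 of both fractions, an alternative added after the values were seen, 1 gene passed in total RNA, compared with 2 in heavy polysome RNA, and Spp1 stood at -1.10 and -1.08 and Trem2 at -0.49 and -1.08.

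The median of the 8 genes differed from array to array: -0.17, -0.12, -0.38 and -0.55 in total RNA, beside -0.09, -0.09, -0.67 and -0.34 in heavy polysome RNA. Without Spp1 and Trem2 it was -0.02, 0.04, -0.18 and -0.22, and -0.06, -0.08, -0.50 and -0.11. Array 3 of heavy polysome RNA stayed lowest. For the 11 tested genes of the other myeloid list the medians ran from -0.07 to 0.01 over the 8 arrays, -0.07 on heavy polysome array 3. Only 6 of these genes were well above background in both channels on all 8 arrays. Aif1, Mpeg1, Fcgr4, Clec4n and Ncf4 were dim, and ratios close to background are drawn towards 0 by the offset. A list median near 0 therefore does not show that the brighter genes stayed unchanged. None of the 11 passed in total RNA, heavy polysome RNA or their difference, where 4.37%, 8.91% and 0% of all genes did. Slc11a1, well above background on all 8 arrays, was below 0 on each of them. Its means were -0.46 ± 0.28 in total RNA (limma adjusted p = 0.0903) and -0.48 ± 0.30 in heavy polysome RNA (0.0587). Mean ratios of 8 of the 11 genes were below 0 in total RNA, and of 6 in heavy polysome RNA. Cd53 (-0.94) and Aif1 (-0.59) were at their lowest on heavy polysome array 3. Lyn (0.81) was at its highest there. The summed level of the 11 genes lay between 11.68 and 12.17 in Cy3 and between 11.84 and 12.18 in Cy5 in total RNA, and between 11.86 and 12.37 and between 12.17 and 12.56 in heavy polysome RNA. A change in the number of myeloid cells as a source of the Spp1 and Trem2 values was not tested.

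**Figure D4:**
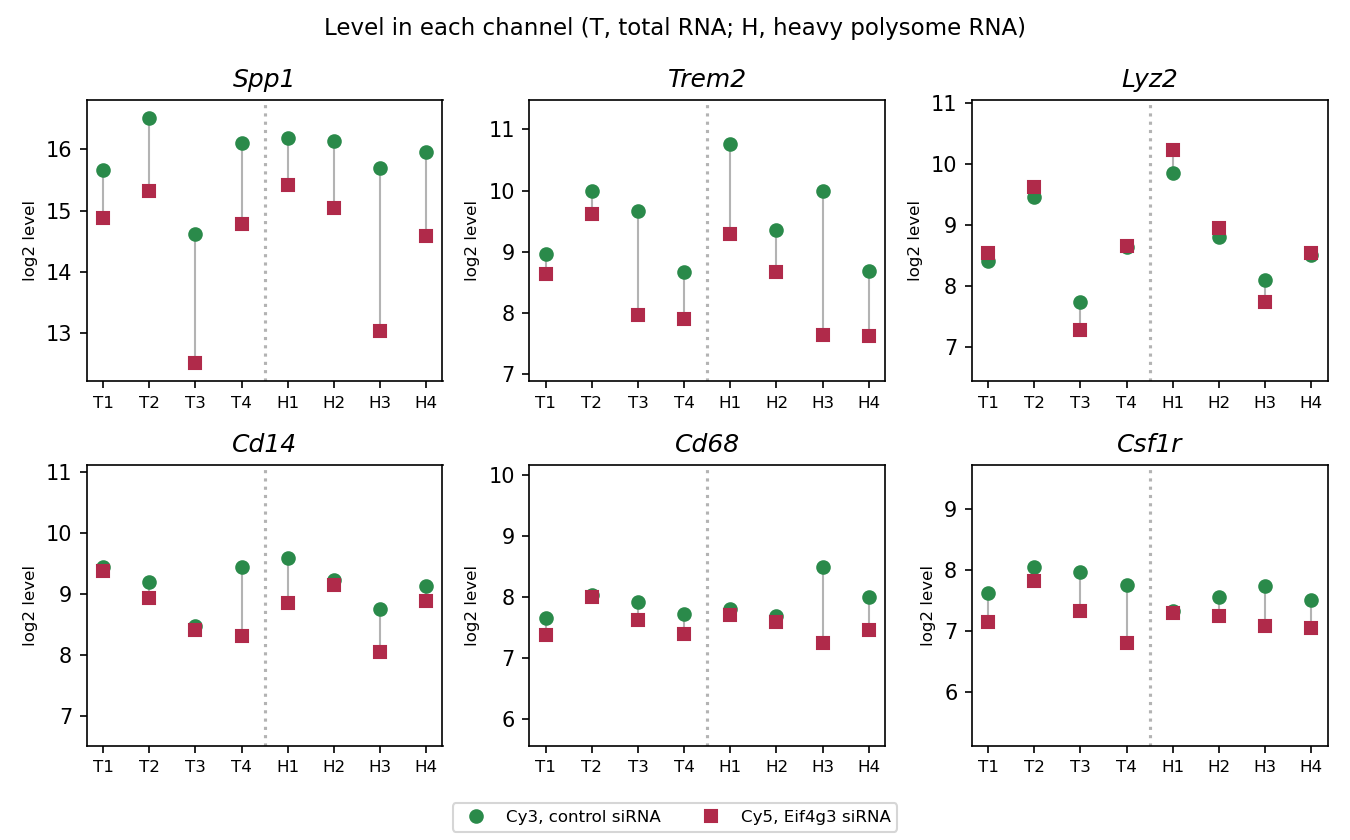
Log2 level on each array (T1 to T4, total RNA; H1 to H4, heavy polysome RNA) of Spp1, Trem2, Lyz2, Cd14, Cd68 and Csf1r in control siRNA cells (Cy3, circles) and Eif4g3 siRNA cells (Cy5, squares), with the same span on every vertical axis. On array 3 of each fraction Spp1 and Lyz2 are lowest in both channels, while Trem2 in Cy3 is not (9.67 and 9.99).

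Whether the siRNA changed polysome loading beyond transcript abundance is read from the difference heavy polysome minus total RNA. None of the 8 genes passed, as none of all 14482 genes did (0%; 755 genes had an unadjusted p under 0.05 in limma, and no gene of the 8 did). For Spp1 the difference was -0.13 (95% interval -1.04 to 0.78), for Trem2 -0.60 (-1.47 to 0.28) and for Csf1r 0.22 (-0.20 to 0.64). The heavy polysome ratio, on which Spp1 and Trem2 were chosen, is part of this difference. The values and intervals of Spp1 and Trem2 are therefore description and no test of loading. Intervals for Cd68 (-0.81 to 0.28), Cd14 (-0.64 to 0.52) and Lyz2 (-0.35 to 0.52) also held 0. With 4 arrays a fraction, a difference as large as the lower bounds remains possible for Spp1 and Trem2. The median of the 8 genes was -0.06, beside 0.06 over all genes.

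Within 1 siRNA sample, the level in heavy polysome RNA was set against that in total RNA. In control siRNA cells none of the 8 genes passed, against 2.33% of all genes: Spp1 differed by 0.27 (limma adjusted p = 0.853), Trem2 by 0.37 (0.836) and Csf1r by -0.32 (0.472). In Eif4g3 siRNA cells none passed either, against 0.145% of all genes, with 0.14 for Spp1 (limma adjusted p = 0.954), -0.23 for Trem2 (0.878) and -0.10 for Csf1r (0.890). Medians of the 8 were 0.10 in control and -0.06 in Eif4g3 siRNA cells, beside -0.02 and 0.01 over all genes. Spp1 and Trem2 were chosen on the ratio of the heavy polysome levels of both channels, so their values here are not independent of that choice. Equal RNA mass was labelled, so each level is a share of the RNA labelled in its sample.

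Genes that work with the 10 were followed through lists. Of the list around Trem2, Csf1r and ITAM signalling, 15 of 29 genes on the array were tested and none passed in either fraction or the difference (medians -0.01 and -0.04). Of all genes 4.37% passed in total RNA, 8.91% in heavy polysome RNA and 0% in the difference. Both Csf1r ligands, Csf1 and Il34, and the kinase Syk, the phospholipase Plcg2 and the Trem2 ligand Apoe were well above background on all 8 arrays in both channels, whereas the adaptor Hcst and the immune kinase and exchange factor genes Btk and Vav1 were on none.

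Of 21 osteopontin receptors and partners 14 were tested; in each fraction 1 was higher and 2 lower past the threshold, against 4.37% (total) and 8.91% (heavy polysome) of all genes (medians -0.33 in total RNA, with -0.05 in heavy polysome RNA). Itga9, a subunit of an integrin that binds osteopontin, fell in both, by 0.79 ± 0.05 in total RNA (limma adjusted p = 0.00776) and by 0.80 ± 0.25 in heavy polysome RNA (0.00368). Runx2, the osteoblast factor that binds the RUNX motif printed above, rose by 0.65 ± 0.31 in total RNA (limma adjusted p = 0.0216), where median centring in place of loess put it at -0.25 and the median of all genes at -0.78, and by 0.78 ± 0.13 in heavy polysome RNA (0.00628). Mmp3, a protease that cleaves osteopontin, fell in heavy polysome RNA (-1.54 ± 0.81, limma adjusted p = 0.00879; -0.69 ± 0.39 and 0.16 in total RNA). Itgb3, which pairs with Itgav in the vitronectin receptor, fell in total RNA (-0.56 ± 0.09, limma adjusted p = 0.0254; -0.38 ± 0.28 and 0.0618 in heavy polysome RNA). Cd44 and Itgav were well above background on all 8 arrays and did not pass. When each of the 8 arrays was left out in turn, Itga9 in both fractions and Runx2 and Mmp3 in heavy polysome RNA passed every time. Runx2 in total RNA was lost without total RNA array 1 or 3 (limma adjusted p up to 0.109), and Itgb3 without any 1 array of total RNA or heavy polysome array 4 (up to 0.113).

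For each list in this paragraph, the share of all genes past the threshold was 8.91% in heavy polysome RNA and 4.37% in total RNA. No count is read as a result about its list. Of 13 tested complement genes, C1ra, a protease that acts with C1q, fell in heavy polysome RNA (-0.86 ± 0.41, limma adjusted p = 0.0209) and none passed in total RNA. Of 12 tested genes of lipopolysaccharide recognition, the pathway of Cd14, the receptor gene Tlr2 fell in heavy polysome RNA (-0.50 ± 0.29, limma adjusted p = 0.0293) and none passed in total RNA. Of 30 tested phagocytic and lysosomal genes, beside which Cd68 stands, none passed in total RNA, while in heavy polysome RNA the galectin gene Lgals3 rose (0.62 ± 0.33, limma adjusted p = 0.0340) and 2 fell, the cholesterol exporter gene Abcg1 (-1.25 ± 0.35, 0.00550) and Npc1, which moves cholesterol out of lysosomes (-0.39 ± 0.15, 0.0238). The medians of that list were -0.21 and -0.08. Ctss, the cathepsin of antigen-presenting cells, was not well above background, whereas Ctsb, Ctsd, Ctsk, Ctsl and Ctsz were on all 8 arrays. Of 17 tested stromal genes 5 passed in heavy polysome RNA and 1 in total RNA, against the same 8.91% and 4.37% of all genes: Pdgfra (-0.65 ± 0.13, limma adjusted p = 0.0109), Pdgfrb, Col1a1 and Col1a2 fell and Cxcl12 rose (0.78 ± 0.47, 0.0197) in heavy polysome RNA, and Col1a2 fell in total RNA. In heavy polysome RNA 1 of 6 tested endothelial genes rose, Egfl7, a secreted protein of blood vessels (0.84 ± 0.31, limma adjusted p = 0.0197), and 1 of 3 lymphocyte genes, the T cell kinase gene Lck (0.34 ± 0.11, 0.0360), while neither passed in total RNA. Of these calls only Abcg1 passed whichever array was left out. C1ra was lost without heavy polysome array 1, 3 or 4 (limma adjusted p up to 0.0661), Tlr2 without total RNA array 2 or any 1 of heavy polysome arrays 1, 2 and 4 (up to 0.0908), Lgals3 without total RNA array 2 or any 1 of heavy polysome arrays 2, 3 and 4 (up to 0.0979) and Npc1 without heavy polysome array 2, 3 or 4 (up to 0.113). Pdgfra was lost without heavy polysome array 4 (0.0607), Cxcl12 without array 2 or 4 of that fraction (up to 0.0866), Col1a1 without array 1, 2 or 4 of it (up to 0.0881) and Pdgfrb without any 1 of its arrays or total RNA array 2 or 3 (up to 0.131). Col1a2 in heavy polysome RNA passed only when total RNA array 4 was left out, and in total RNA only when heavy polysome array 1 or 3 was. With the mean of all probes of a gene, Cxcl12 in heavy polysome RNA stood at only 0.15 (limma adjusted p = 0.695). Under that setting Col1a1 did not pass there either (-0.41, limma adjusted p = 0.0916), while C1ra (-0.64, 0.00559) and Col1a2 (-0.42, 0.0360) still did. Egfl7 was lost without any 1 of heavy polysome arrays 2, 3 and 4 (up to 0.0832), and Lck without any 1 of these or total RNA array 2 or 3 (up to 0.151).

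The genes whose 8 ratios followed those of Spp1 and Trem2 most closely were not in the myeloid lists used here. Those lists do not hold every myeloid gene, and in which cells these genes are expressed was not tested. For Spp1 they were Akr1c18 (Pearson r = 0.969 over the 8 arrays), Mrrf (0.968), the unnamed transcript TC1633516 (0.962), Napb (0.962) and Orc2 (0.957), out of 14482 genes. For Trem2 they were Bdh2 (0.980), Phyhd1 (0.980), Adam8 (0.969), Cpne5 (0.968) and Fam183b (0.968). All 10 were lowest on heavy polysome array 3, and the points share arrays and their normalisation, so no p is given. Adam8, a membrane metalloprotease gene, had -0.11, -0.32, -1.08 and -0.66 in total RNA, compared with -0.91, -0.59, -1.43 and -0.85 in heavy polysome RNA. Among the set itself, Spp1 correlated with Trem2 at 0.790, with Lyz2 at 0.909 and with Cd68 at 0.787, but with Cd14 at 0.127.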

How the data were processed

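Arrays with 2 colours of 8 samples were analysed, 4 per RNA fraction. Per the file headers, the authors' scanner tables hold spot and local background intensity of both channels, made with Feature Extraction 10.7.3.1 on 7 arrays and 10.5.1.1 on total RNA array 2, with probe positions on mm8. The values of the deposited series matrix are log2 ratios, Cy5 to Cy3: at least 99.86% of 41174 probes lay within 0.05 of the log2 ratio of the processed signals, with column medians from -0.21 to 0.30, so it was not centred, and it served as an alternative.

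Mean signals were corrected with normexp (offset 50) and loess (span 0.3) in limma 3.58.1 under R 4.3.3; 131 to 241 marked spots per array were left out and 0 were saturated. Spots of a probe were averaged and the brightest probe of a gene was used. Levels of single channels were further scaled between arrays (Aquantile). Names were updated through RefSeq (GRCm38.p6) for 33026 probes (80.2%); up to 1989 spots were named differently on another array. A gene was tested if either channel was well above background on 3 or more of the 4 arrays of a fraction, with at least 3 values per fraction. 1 coefficient per fraction was fitted over the 8 arrays, two-sided, threshold 0.05. The number of arrays limits the precision. Each of the 5 slides held 1 fraction only. Same-numbered arrays of the fractions did not deviate together (r = -0.02, 0.17, -0.11 and -0.30 across genes), so numbers were not treated as pairs. The test was checked on simulated data. Plots used matplotlib 3.10.9.

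The genes and lists were chosen with earlier results of these data known. Named are the 10 genes, up to 4 genes per list past the threshold with at least 1.5-fold change, the 5 genes most correlated with Spp1 and with Trem2, and markers by their detection. Cd53, Aif1, Lyn, Slc11a1, Itgb3, Lck, Tlr2, Npc1, Pdgfrb and Col1a2 were named after their values were seen. Alternatives varied the filter, probe choice, background, normalisation, arrays and blocks. Probe A_52_P582059, named Lyz on 1 array only, was not used as Lyz2.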

Additional observations from a re-analysis of the deposited data

Results flagged for a closer look

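In 48 groups of 4 arrays (8 genes, 2 fractions, and the ratio and both channel levels), 1 value stood apart from its group. The log2 ratio of Cd68 on total RNA array 2 was -0.021, whereas the other 3 arrays lay between -0.33 and -0.29. Its gap to the nearest of them was 0.873 of the whole range, above Dixon's critical value at 95% for 4 samples, which chance alone exceeds in about 1 in 20 groups. All 4 values of Cd68 were below 0, and the array with the most deviant Spp1 and Trem2 values, array 3, was not set apart by this criterion.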

How the results depend on the processing

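All 8 genes were followed through the alternatives, and no called value of theirs changed its sign. The count in total RNA (2) was 0 with no filter on dim probes, 0 with heavy polysome arrays 2 and 4, the closest pair, counted as 1 replicate, 0 with median centring in place of loess, and 1 with the mean of all probes, with no background correction, with only the arrays of the fraction, or without array 3 of both fractions. The count in heavy polysome RNA (2) was 1 with arrays 2 and 4 as 1 replicate, 0 with median centring, 0 with only the arrays of the fraction and 4 with the deposited values, where Cd14 (-0.48) and Cd68 (-0.67) passed too. With 1 array left out the counts ran from 0 to 2 in both fractions. Under median centring all genes shifted: the median of the 8 became -1.0 in total RNA (all genes -0.78) and 0.50 in the difference (all genes 0.78), and with median scaling of each channel it became 0.48 between fractions in Eif4g3 siRNA cells (all genes 0.53). With the replicate number as a block, a pairing that the arrays do not bear out, both counts were 2, but Csf1r was lost in total RNA and Trem2 gained there (adjusted p = 0.0466 in limma); calls over all genes went from 633 to 210 and from 1290 to 585. Of 19 calls of list genes 14 were lost without some 1 array, and 1 changed its sign (Runx2 in total RNA, -0.25 with median centring). Of the values for single genes of the set 30 lost and 3 gained a call. Few arrays and dim signal limit C1qb, Fcer1g, C1qa and Tyrobp.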
